A study of Mus musculus with 2 samples.

Results

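A set of 156 genes had different proportions of their isoforms in the cerebral cortex libraries of wild-type (WT) and *Rbfox3*-/- (KO) mice, while their total RNA was mostly at a similar level in both. They were chosen from 37303 genes in the deposited table. The 4554 genes with at least 2 listed isoforms and at least 10 FPKM (fragments per kilobase of transcript and per megafragment mapped) in both libraries were considered. The share of an isoform is its FPKM over the summed isoform FPKM of its gene in that library. The shift of a gene is the sum of the absolute WT to KO differences in share multiplied by 0.5, so that it runs from 0 for identical proportions to 1 for a complete exchange. Genes with a shift of at least 0.2 were kept, 161 in all (3.54%), and *Homer1*, *Celf1*, *Rod1*, *Akap5* and *Grin1*, which also reached it, were left out. Because the KO against WT shares chose the genes, the shares below are a description of these libraries, with no test.

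RNA came from the right cortical hemisphere of male mice at P56, as the study's methods state, with 1 library for each genotype. The KO mice were homozygous for C57BL/6N-Rbfox3 tm1a(EUCOMM)Hmgu, an allele that the mice carried through development and for which the methods name no Cre. The WT mice were littermate controls from matings between heterozygotes, and the labels give B6 as the strain of both. The methods do not give the number of mice behind a library. Mice of both genotypes were anesthetized with isoflurane before they were killed, and the methods name no other agent for this experiment. With 1 library for each genotype the spread between mice is not known, so no difference below has a replicate check. *Rbfox3* itself was at 57.3 (WT) and 6.46 FPKM (KO).

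RBFOX proteins bind RNA at the motif (U)GCAUG, mostly in introns beside alternative exons. In general, binding downstream of an exon favours its inclusion and binding upstream favours its skipping. RBFOX3, also known as NeuN, is found in most mature neurons, where RBFOX1 and RBFOX2 are present as well. A gene can keep its total RNA while its isoforms trade places, and the protein, its localization signals or the stability of the RNA may then differ.

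The deposited isoform rows carry no transcript names, so no row can be assigned to an annotated transcript and no exon inclusion can be given from them. All 156 genes were found in the GENCODE M21 annotation of GRCm38. Of these, 101 (64.7%) had as many annotated transcripts as isoform rows, against 61.4% of the 4542 considered genes found there. To show what the isoforms of these genes can differ by, coding exons were sought that an annotated protein-coding transcript contains and that another skips between the same flanking exons. Such exons of at most 300 bases numbered 116 in 69 genes, and 87 of them were a multiple of 3 bases long, which keeps the reading frame. These exons were not counted over all genes considered, so their length is not shown to be particular to the members. The following were chosen from genes described below because they are short, or lie in genes with the largest shifts or the highest levels. The alternative exon is in capitals, with 9 bases of the neighbouring exons on each side in lower case, 5′ to 3′ in the direction of transcription, from the GENCODE transcripts of GRCm38.
*Dync1i2* chr2:71227827-71227844 plus strand: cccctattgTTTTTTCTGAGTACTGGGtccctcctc
*Dync1i2* chr2:71233649-71233708 plus strand: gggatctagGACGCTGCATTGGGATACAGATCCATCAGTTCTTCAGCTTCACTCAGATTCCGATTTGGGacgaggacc
*Mapk8ip3* chr17:24908411-24908428 minus strand: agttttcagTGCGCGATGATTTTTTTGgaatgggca
*Mapk8ip3* chr17:24920472-24920495 minus strand: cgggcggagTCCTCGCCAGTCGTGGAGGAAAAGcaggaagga
*Dnm2* chr9:21489910-21489921 plus strand: cccaatcagGGTCATGTAGCTgtgatccgc
*Dnm2* chr9:21490658-21490669 plus strand: cccaatcagGGGGAGATCTTGgtgatccgc
*Myo6* chr9:80296643-80296681 plus strand: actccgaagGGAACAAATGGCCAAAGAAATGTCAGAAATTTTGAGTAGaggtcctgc
*Myo6* chr9:80303273-80303299 plus strand: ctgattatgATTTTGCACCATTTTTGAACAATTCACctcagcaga
*Map2k7* chr8:4240688-4240735 plus strand: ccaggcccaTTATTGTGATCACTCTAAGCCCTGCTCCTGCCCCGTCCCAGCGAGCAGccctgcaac
*Cpne1* chr2:156078752-156078823 minus strand: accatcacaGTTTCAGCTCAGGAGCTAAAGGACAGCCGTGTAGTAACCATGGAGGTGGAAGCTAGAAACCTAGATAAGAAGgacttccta
*Osbpl8* chr10:111224672-111224708 plus strand: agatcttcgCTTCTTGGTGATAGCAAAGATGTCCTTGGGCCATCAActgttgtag
*Pex5* chr6:124404133-124404243 minus strand: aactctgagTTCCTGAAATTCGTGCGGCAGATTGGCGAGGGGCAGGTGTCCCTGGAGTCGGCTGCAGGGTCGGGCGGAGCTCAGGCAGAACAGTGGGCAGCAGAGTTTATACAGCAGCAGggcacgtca
*Pip5k1a* chr3:95064331-95064474 minus strand: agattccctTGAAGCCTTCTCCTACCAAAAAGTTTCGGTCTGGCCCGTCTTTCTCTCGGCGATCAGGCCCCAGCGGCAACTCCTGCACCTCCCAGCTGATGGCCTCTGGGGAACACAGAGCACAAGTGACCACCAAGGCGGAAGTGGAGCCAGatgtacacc
The 18-base exon of *Dync1i2* is in 3 and its 60-base exon in 5 of 8 annotated protein-coding transcripts. The 18-base exon of *Mapk8ip3* is in 7 and the 24-base exon in 3 of 10. The exons of 12 bases in *Dnm2* lie between the same neighbouring exons, and are in 1 and 5 of 8 transcripts. The exon of *Pip5k1a* is 144 bases long and is in 3 of 4 transcripts.

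The largest shift was that of *9530068E07Rik*, a gene on chromosome 11 (52396428 to 52408728, plus strand) named only by its cDNA clone. Its shift was 0.857. An isoform at 30.8 (WT) was at 3.95 FPKM (KO), from 96.9% to 11.1% of the gene. Another was at 0.11 (WT) and 30.5 FPKM (KO), from 0.344% to 86.0%. The gene as a whole was at 31.8 (WT) and 35.5 FPKM (KO), so that nearly all of its RNA was assigned to a different isoform in each library. The annotation gives it 4 transcripts, of which 2 are protein-coding. The exons of these coding transcripts differ by 5 bases at the 3′ end (52408724 to 52408728), and their coding parts by 24 bases, which lie in exons that they share. The part of this small difference in the assignment was not tested.

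**Figure D1:**
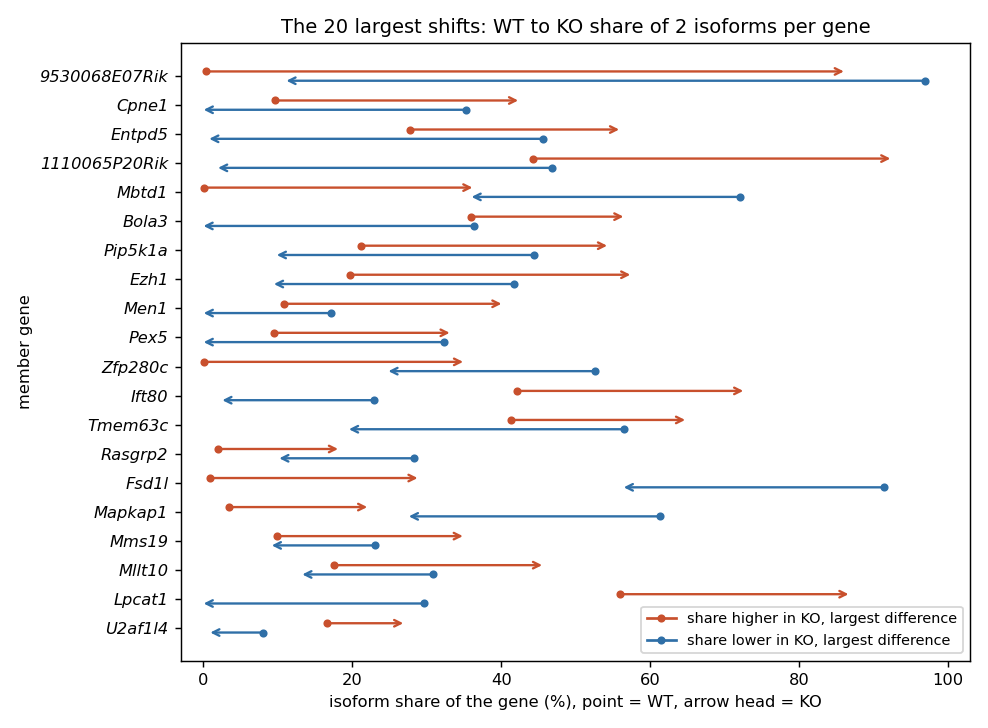
Shares of a gene's summed isoform FPKM (%) in WT (point) and KO (arrow head) for the 20 genes with the largest shifts, with the isoform whose share was higher in KO by the largest difference in red and the one lower by the largest difference in blue. In *9530068E07Rik* an isoform with 96.9% of the gene in WT had 11.1% in KO and another with 0.344% had 86.0%, while in *U2af1l4*, with 38 isoforms, no share differed by much.

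*9530068E07Rik* stood alone at the top. Only 4 genes had a shift of at least 0.4, 29 had at least 0.3 and 70 had at least 0.25, and the median was 0.243. The smallest shifts that reached the threshold were those of *Trim46* (0.20067), *Ptp4a2* (0.20068) and *Lrrk2* (0.20104). The largest that missed it were those of *Zhx1* (0.19987), *Fmnl1* (0.19949) and *Kcnip2* (0.19892). No gap in the values separated the genes on either side of the threshold.

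How far a single pair of isoforms carried the difference varied. The smaller of the largest increase and the largest decrease in share made up a median of 55.8% of the shift, against 64.0% in all genes considered. It was at least 90% in 18 members and under 50% in 61, counts that were not made over all genes considered. The lower and upper quartiles were 42.1% and 73.8% in the members, and 49.6% and 89.7% in all genes considered. In any gene with 2 isoform rows, as in 4 members, it is 100% by definition. The members had more isoforms, a median of 9 against 5, and were not compared with all genes at equal numbers of isoforms. The isoform with the largest share was a different one in WT and in KO in 49 of 156 genes, against 5.53% of the 4554 genes considered, a count that the choice of the genes raises. In 13 of these genes the leading isoform was ahead by at least 10 percentage points in each library: *9530068E07Rik*, *Entpd5*, *Ezh1*, *Fam5c*, *Hcn2*, *Itgb1bp1*, *Kif1c*, *Men1*, *Nagk*, *Nfe2l1*, *Pip5k1a*, *Tmem25* and *Tmem63c*. This stricter count was not made over all genes considered, and the choice of the genes raises it too.

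Sorted by hand by known function, 32 of the 156 were genes of transcription and chromatin and another 32 were of other or no assigned function. All genes considered were not sorted in this way, so these numbers have no background. *Nfe2l1*, which encodes a transcription factor that induces proteasome and stress response genes, had a shift of 0.321 at a high level, 63.6 (WT) and 67.4 FPKM (KO). Its leading isoform in WT had 39.3% of the gene there and 10.3%, at 6.97 FPKM, in KO. The leading isoform in KO was at 9.93 (WT) and 25.6 FPKM (KO). These isoforms exchanged their rank, and another at 13.9 (WT) and 14.2 FPKM (KO) was level in both.

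Polycomb and histone methylation genes were among the chromatin genes with large shifts. *Ezh1*, a histone H3 lysine 27 methyltransferase of the Polycomb complex, was at 14.1 (WT) and 14.7 FPKM (KO). Its isoforms at 5.87 and 2.78 FPKM (WT) were at 1.39 and 8.42 (KO). *Men1*, encoding menin, a cofactor of histone H3 lysine 4 methyltransferases, was at 18.2 (WT) and 16.4 FPKM (KO). An isoform of *Men1* with 17.1% of the gene in WT had 0.0235% in KO, while another had 10.8% in WT and 40.0% in KO. *Mbtd1*, whose protein reads methylated histones, had an isoform at 0.0108 (WT) and 4.17 FPKM (KO) beside a second isoform at 8.87 and 4.16 FPKM, and the gene was at 12.3 and 11.6 FPKM. In all of these the level of the gene was close between the libraries and the exchange was within it.

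Other regulators of transcription had lower shifts, and the totals of some of them differed more between the libraries. *Mllt10*, a cofactor of the histone H3 lysine 79 methyltransferase, was at 13.3 (WT) and 12.4 FPKM (KO), and its most different isoforms were at 2.33 and 4.09 (WT) and at 5.66 and 1.65 FPKM (KO). *Mlx*, the dimerization partner of glucose-sensing transcription factors, had an isoform with 78.2% of the gene in WT and 55.8% in KO, and the gene was at 11.4 and 10.5 FPKM. *Mbd5*, a methyl-CpG binding domain gene, had an isoform at 3.66 (WT) and 8.85 FPKM (KO). Its total was 21.5 (WT) and 25.7 FPKM (KO). *Baz2b*, a bromodomain gene at 11.3 (WT) and 14.1 FPKM (KO), had a shift of 0.210, spread over many of its 14 isoforms. *Brwd1*, another bromodomain gene, was at 43.4 (WT) and 41.1 FPKM (KO), and its leading isoform was at 26.5 (WT) and 17.3 FPKM (KO). *Zfp280c*, a zinc finger gene, was at 13.1 FPKM in both libraries, and an isoform of it at 0.00123 (WT) was at 4.58 FPKM (KO).

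*Zfp281*, a zinc finger transcription factor gene of stem cells, had only 2 isoform rows, and the annotation gives it 2 coding transcripts with the same coding length of 2679 bases. One row was at 8.77 (WT) and 17.8 FPKM (KO). The other was at 5.61 (WT) and 2.65 FPKM (KO). The annotated transcripts differ by 4 internal bases (chr1:136625268-136625271), outside the coding sequence. The gene itself was at 14.4 (WT) and 20.5 FPKM (KO), a log2 ratio of 0.48, among the larger gene-level differences of the set.

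RNA processing, export and translation genes numbered 13. *U2af1l4*, a paralogue of the small subunit of the splicing factor that recognizes the 3′ splice site, was 1 of 73 listed splicing regulators with enough isoforms and RNA (1.37%), against 3.43% of all genes considered, but *Celf1* and *Rod1*, RNA-binding splicing regulators that reached the threshold, had been left out by name and were not on the list. It had 38 isoform rows, more than any other member, and was at 20.1 (WT) and 17.4 FPKM (KO). Its shift of 0.325 was spread thinly: the largest increase was from 3.32 to 4.67 FPKM and the largest decrease from 1.61 to 0.158 FPKM. *Rnpc3*, a protein of the minor spliceosome, differed by an isoform at 0.000909 (WT) and 5.0 FPKM (KO), beside a main isoform at 18.2 and 16.3 FPKM. *Slu7*, a factor of the second step of splicing, had an isoform at 5.80 (WT) and 0.642 FPKM (KO). *Nxt2*, a partner of the RNA export receptor, had an isoform at 8.89 (WT) and 0.0261 FPKM (KO), which was 26.6% and 0.082% of the gene. Of the 23 tested genes listed with exons known from earlier work to respond to RBFOX proteins, 0 were members, a list too short to read against the 3.43% of all genes, and their median shift was 0.0544, close to that of 0.0499 for all 4554 genes.

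Genes of membrane traffic, motors and the cytoskeleton numbered 20. *Dync1i2*, an intermediate chain of the dynein motor that carries cargo toward the cell body, was among the most abundant at 76.2 (WT) and 73.1 FPKM (KO). Its leading isoform was at 21.1 (WT) and 31.6 FPKM (KO). An isoform at 17.2 (WT) was at 6.20 FPKM (KO), and another was at 19.7 and 12.8 FPKM. The same isoform led in both libraries, with a larger share in KO.

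*Mapk8ip3*, a scaffold that links JNK signalling and cargo to kinesin in axons, was at 65.9 (WT) and 65.3 FPKM (KO). The leading isoform of WT was at 15.7 FPKM there and 10.2 FPKM in KO, and that of KO was at 10.6 and 14.3 FPKM. These lie among 21 isoforms, and the pair made up 28% of the shift of 0.209. *Myo6*, the myosin that moves toward the minus end of actin, was at 18.8 (WT) and 19.6 FPKM (KO). Of its main isoforms, 1 was at 9.14 (WT) and 13.0 FPKM (KO), and the other at 7.29 and 4.2 FPKM. *Myo18a*, an unconventional myosin of the Golgi, was at 20.6 (WT) and 20.5 FPKM (KO), and its main isoforms were at 5.03 and 4.89 (WT) and at 3.22 and 7.16 FPKM (KO). The totals of these genes were similar in both libraries.

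The following traffic genes had lower totals. *Cpne1*, a copine that binds membranes in response to calcium, had the second largest shift, 0.491. It was at 12.2 (WT) and 11.9 FPKM (KO). An isoform of *Cpne1* at 4.32 (WT) was at 0.00307 FPKM (KO), and another at 1.18 (WT) was at 5.04 FPKM (KO). *Dnm2*, the dynamin that cuts vesicles off membranes in most tissues, had an isoform at 0.00253 (WT) and 1.54 FPKM (KO), 12.1% of the gene there. *Sec16a*, which organizes the exit sites of the endoplasmic reticulum, was at 15.7 (WT) and 12.7 FPKM (KO), and its isoforms at 5.45 and 2.08 FPKM (WT) were at 2.45 and 4.45 (KO). *Ift80*, a component of transport in cilia, was at 12.3 (WT) and 10.5 FPKM (KO), with an isoform at 2.82 (WT) and 0.265 FPKM (KO). *Trim46*, needed for microtubule order at the start of the axon, had an isoform listed at 0 (WT) and at 1.51 FPKM (KO).

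Lipid and phosphoinositide genes formed a small group of 8, assigned by hand after the members were known. Their log2 ratios ran from 0.07 to 0.34, above 0 as in 54.2% of all genes considered and within the range that holds the central 95% of all, from −0.33 to 0.37. *Pip5k1a*, the kinase that makes phosphatidylinositol 4,5-bisphosphate, had a shift of 0.391, with an isoform at 8.23 (WT) and 2.06 FPKM (KO) and another at 3.93 and 11.3 FPKM. *Pi4ka*, which makes the precursor of that lipid at the plasma membrane, was at 73.1 (WT) and 76.8 FPKM (KO). Its isoforms at 25.1, 22.8 and 11.8 FPKM in WT were at 17.3, 42.3 and 5.74 FPKM in KO. The second of these led in KO with 55.1% of the gene, against 31.2% in WT. *Osbpl8*, a protein that exchanges lipids between the endoplasmic reticulum and the plasma membrane, had only 2 isoform rows. The first was at 24.7 (WT) and 41.2 FPKM (KO), and the second at 11.9 and 2.05 FPKM. The shares of the second were 32.6% in WT and 4.74% in KO. *Lpcat1*, an acyltransferase of phospholipids, had an isoform at 3.40 (WT) and 0.00251 FPKM (KO), while the gene was at 11.5 and 13.1 FPKM. *Pik3ca*, the catalytic subunit of a phosphoinositide 3-kinase, had isoforms at 9.13 and 4.50 (WT) and at 14.6 and 1.05 FPKM (KO).

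**Figure D2:**
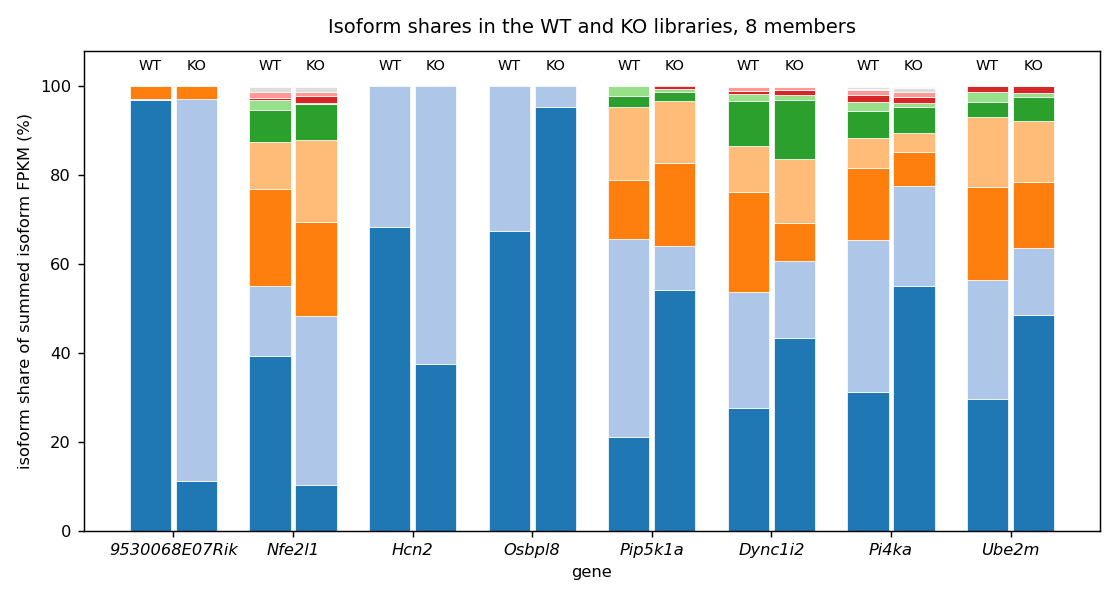
Stacked shares (%) of the isoforms of 8 genes in the WT and KO libraries, 1 bar for each library, where colours mark the isoforms of a gene in order of their largest share and gray the remaining ones. The bars of *Hcn2*, *Nfe2l1* and *9530068E07Rik* change their leading isoform, and those of *Osbpl8*, *Dync1i2* and *Ube2m* keep it.

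Of the ion channel genes, *Hcn2* showed the cleanest exchange. It encodes a channel of the hyperpolarization-activated current that sets resting potential and rhythm in neurons. The gene was at 24.2 (WT) and 24.4 FPKM (KO), and it had only 2 isoform rows. The first was at 16.6 (WT) and 9.13 FPKM (KO), and the second at 7.67 and 15.2 FPKM. The first thus had 68.4% of the gene in WT and 37.5% in KO, and the shift was 0.309. *Hcn2* lies on chromosome 10 (79716634 to 79736108, plus strand), and the annotation gives it 2 coding transcripts with the same coding length of 2589 bases. They differ by 106 bases in the last exon, at chr10:79735873-79735978, after the coding sequence, which only 1 of them keeps. *Tmem63c*, a member of a family of mechanically and osmotically gated channels, was at 11.2 (WT) and 11.3 FPKM (KO), with isoforms at 6.35 and 4.64 (WT) and at 2.20 and 7.28 FPKM (KO). A further isoform of *Tmem63c* was at 0.00275 (WT) and 1.62 FPKM (KO). *Slco1c1*, the thyroxine transporter of brain vessels and astrocytes, was at 23.9 (WT) and 20.5 FPKM (KO), and its isoforms at 10.3 and 9.38 FPKM (WT) were at 5.37 and 13.8 (KO). *Ache*, encoding acetylcholinesterase, had an isoform listed at 0 (WT) and at 1.97 FPKM (KO).

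Kinase, phosphatase and G protein signalling genes numbered 17. *Rasgrp2*, an activator of the small GTPase Rap that responds to calcium and diacylglycerol, was at 12.6 (WT) and 11.3 FPKM (KO). Its isoform at 3.55 (WT) was at 1.15 FPKM (KO), and another was at 0.236 and 2.04 FPKM, among 24 isoform rows. *Mapkap1*, a subunit of the mTOR complex that activates AKT, had an isoform with 61.4% of the gene in WT and 27.6% in KO, at totals of 13.3 and 14.7 FPKM. *Tsc1*, an inhibitor of the other mTOR complex, was at 12.2 (WT) and 13.2 FPKM (KO) and had an isoform at 4.88 and 3.06 FPKM. *Map2k7*, an activator of JNK, was at 14.1 (WT) and 14.3 FPKM (KO), and its leading isoform was at 8.81 and 11.1 FPKM. *Ptp4a2*, a phosphatase with a lipid anchor, was at 60.3 (WT) and 61.5 FPKM (KO), and its main isoforms were at 42.1 and 17.0 (WT) and at 30.7 and 26.3 FPKM (KO). *Dusp14*, a dual-specificity phosphatase, was at 45.8 (WT) and 39.5 FPKM (KO), and an isoform of it at 16.1 (WT) was at 6.13 FPKM (KO). *Lrrk2*, a kinase gene mutated in inherited Parkinson disease, had an isoform at 5.45 (WT) and 1.44 FPKM (KO) while the leading one was at 8.69 and 8.91 FPKM. Its total, 18.1 (WT) and 14.2 FPKM (KO), differed by the part of that isoform.

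Mitochondrial and peroxisomal genes numbered 9, and genes of sugar metabolism and glycosylation 9. *Bola3*, needed to deliver iron-sulfur clusters to mitochondrial enzymes, was at 18.9 (WT) and 11.7 FPKM (KO). An isoform of it at 6.86 FPKM (WT) was listed at 0 in KO, while another was at 6.79 and 6.58 FPKM and a further one at 2.71 and 2.97 FPKM. The lower total of *Bola3* in KO lay mainly in that isoform. *Ndufaf1*, an assembly factor of respiratory complex I, was at 15.7 (WT) and 16.7 FPKM (KO) and had an isoform at 0.00105 (WT) and 4.21 FPKM (KO). *Pex5*, the receptor that brings enzymes into peroxisomes, had an isoform at 4.09 (WT) and 0.00228 FPKM (KO), and its total was 12.6 and 11.9 FPKM. *Entpd5*, a nucleotidase that supports protein folding in the endoplasmic reticulum, had an isoform at 4.67 (WT) and 0.0790 FPKM (KO), and others at 2.84 and 1.21 FPKM (WT) were at 5.74 and 3.38 (KO). *Dpy19l1*, which adds mannose to tryptophan of secreted proteins, was at 40.2 (WT) and 45.9 FPKM (KO), with isoforms at 11.5 and 5.69 (WT) and at 3.78 and 14.6 FPKM (KO).

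Among the 7 ubiquitin and autophagy genes, *Ube2m* was the most abundant member of the whole set. It encodes the conjugating enzyme that attaches NEDD8 to cullins, and was at 100.6 FPKM (WT), with a log2 ratio of KO to WT of −0.01. Its leading isoform was at 29.9 (WT) and 48.5 FPKM (KO). Others of its main isoforms were at 26.9 and 15.9 (WT) and at 15.1 and 13.7 FPKM (KO), each lower in KO. *Rb1cc1*, encoding the FIP200 subunit of the complex that starts autophagy, was at 52.3 (WT) and 51.5 FPKM (KO). An isoform of *Rb1cc1* at 9.70 FPKM (WT) was listed at 0 in KO, and its leading isoform was at 19.9 and 28.6 FPKM.

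The remaining members among the 20 largest shifts were of mixed or unknown function. *1110065P20Rik*, named by its clone, was at 12.3 (WT) and 12.1 FPKM (KO), and its main isoforms were nearly equal in WT at 5.74 and 5.43 FPKM and at 0.236 and 11.2 FPKM in KO. *Fsd1l*, a gene with fibronectin type III and SPRY domains, had an isoform with 91.3% of the gene in WT and 56.4% in KO, beside another at 0.126 and 5.03 FPKM. Its total was 14.8 (WT) and 17.5 FPKM (KO). *Mms19*, which targets iron-sulfur clusters to enzymes of DNA repair, was at 11.1 (WT) and 10.6 FPKM (KO), with an isoform at 1.09 and 3.69 FPKM. Both kinds of difference, a smaller share of an abundant isoform and a larger share of a rare one, occurred in these genes.

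Isoforms that were nearly exclusive to a library occurred in both directions. At least 10% of the gene in KO with at most 1% in WT was seen for an isoform in 26 members (16.7%), against 1.19% of all genes considered. The opposite, at least 10% in WT and at most 1% in KO, was seen in 21 members (13.5%), against 0.834% of all. The choice of the genes by their share differences raises these counts. *Cbfb*, a subunit of the core binding factor of transcription, had isoforms of both kinds, at 0.0541 and 1.41 (WT) and at 3.25 and 0.00159 FPKM (KO). Of the 1612 isoform rows of the set, 155 were listed at 0 in WT only and 115 in KO only. Few of these were large: 9 isoforms at 0 in WT had at least 10% of their gene in KO, and 9 at 0 in KO had at least 10% in WT. Such rows were not counted over all genes considered, so these counts are not shown to be particular to the members. A value of 0 in such a table can also be an estimate that assigned no fragments, and no fold is given for it.

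At the gene level the members, like most genes considered, differed little between the libraries. The log2 ratio of KO + 1 over WT + 1 FPKM ran from −0.65 to 0.60 with a median of 0.02, and for 154 of the 156 it was smaller than 0.5 in size. The central 95% of all genes considered lay from −0.33 to 0.37, so that count is not particular to the members. The total was higher in KO in 84 members, against 54.2% of all genes considered. Only *Gjb6* was at least 1.5-fold higher, against 0.307% of all, and only *Bola3* was at least 1.5-fold lower, against 0.461%. None was 2-fold higher or lower, where 0.0659% and 0.0878% of all genes were. The median size of the log2 ratio was 0.12 in the members and 0.11 in all 4554 genes.

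**Figure D3:**
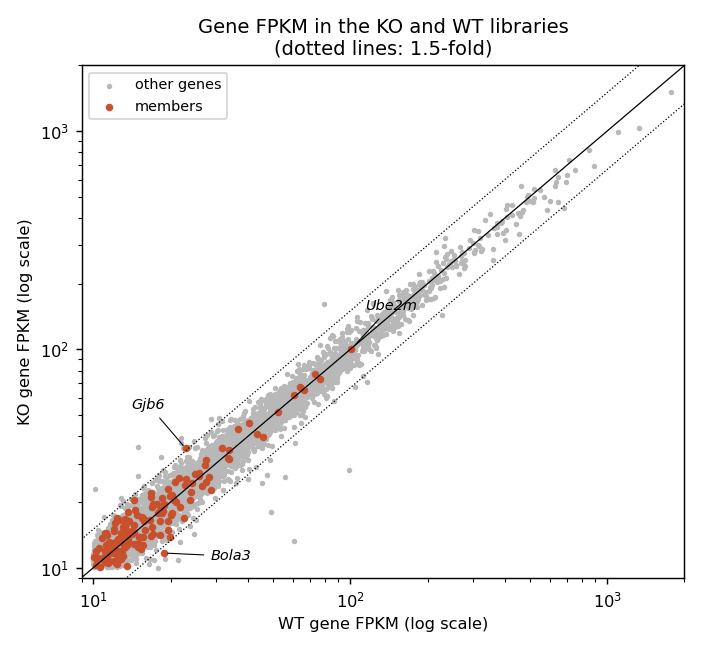
Gene FPKM in the KO library against the WT library, on log scales, for the 156 members (red) and the other genes with at least 2 isoforms and 10 FPKM in both (gray), with the line of equality and dotted lines at 1.5-fold. The members lie along the line of equality, with *Gjb6* above and *Bola3* below the dotted lines.

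*Gjb6*, which encodes the astrocyte gap junction protein connexin 30, was at 22.9 (WT) and 35.2 FPKM (KO), a log2 ratio of 0.60. Its main isoform was at 20.4 (WT) and 23.3 FPKM (KO), and a second at 2.26 and 11.5 FPKM, so that most of the higher total lay in the second. It was the only one of 10 tested astrocyte markers in the set. The 15 astrocyte markers together were at 1200 (WT) and 1250 FPKM (KO), and *Slc1a3*, an astrocyte glutamate transporter, was at 138 and 143 FPKM. *Nr4a2*, an immediate early gene of the nuclear receptor family, was at 19.8 (WT) and 13.8 FPKM (KO), a log2 ratio of −0.49, and its isoforms at 10.5 and 6.31 FPKM (WT) were at 9.28 and 2.36 (KO). The 21 immediate early genes together were at 247 (WT) and 574 FPKM (KO), with 16 of them at least 1.5-fold higher and 1 at least 1.5-fold lower in KO.

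The libraries also differed in markers of region and cell type. Choroid plexus markers, 10 genes, summed to 234 (WT) and 6.95 FPKM (KO), and *Ttr* alone was at 221 and 3.71 FPKM. The 16 striatal neuron markers summed to 321 and 163 FPKM, with *Ppp1r1b* at 49.2 (WT) and 18.0 FPKM (KO), and the 18 oligodendrocyte markers to 1780 and 1210 FPKM, with *Mbp* at 679 and 444 FPKM. The 12 endothelial markers summed to 122 and 110 FPKM, although *Cldn5* was at 13.4 and 5.70 FPKM. The other lists were closer: the 13 excitatory neuron markers were at 1380 and 1370 FPKM, the 12 inhibitory neuron markers at 840 and 828 FPKM and the 13 microglia markers at 168 FPKM in both. *Slc17a7* was at 276 and 302 FPKM, *Gad1* at 97.2 and 119.6 FPKM and *Cx3cr1* at 11.9 and 11.3 FPKM. No defining marker was at 0. Isoforms can differ between cell types, and the part of these differences in the shares was not tested. In bulk tissue, fewer cells of a type and less RNA for each cell cannot be told apart.

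The share of genes that were members was higher with more listed isoforms and lower with more RNA. They had a median of 9 isoforms, against 5 for all genes considered, and a median mean level of 14.6 FPKM, against 25.2 FPKM. Of the genes with 2 to 4 isoforms, 18 of 1800 (1.0%) were members, of those with 5 to 9 isoforms 61 of 1892 (3.22%), of those with 10 to 14 isoforms 48 of 634 (7.57%), and of those with 15 or more 29 of 228 (12.7%). By level, members made up 82 of 980 genes (8.37%) between 10 and 15 FPKM and 36 of 753 (4.78%) between 15 and 20 FPKM. They made up 31 of 1768 (1.75%) between 20 and 50 FPKM, 6 of 662 (0.906%) between 50 and 100 FPKM and 1 of 391 (0.256%) at 100 FPKM or more. In all, 118 members (75.6%) had a mean under 20 FPKM, against 38.1% of all genes considered.

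**Figure D4:**
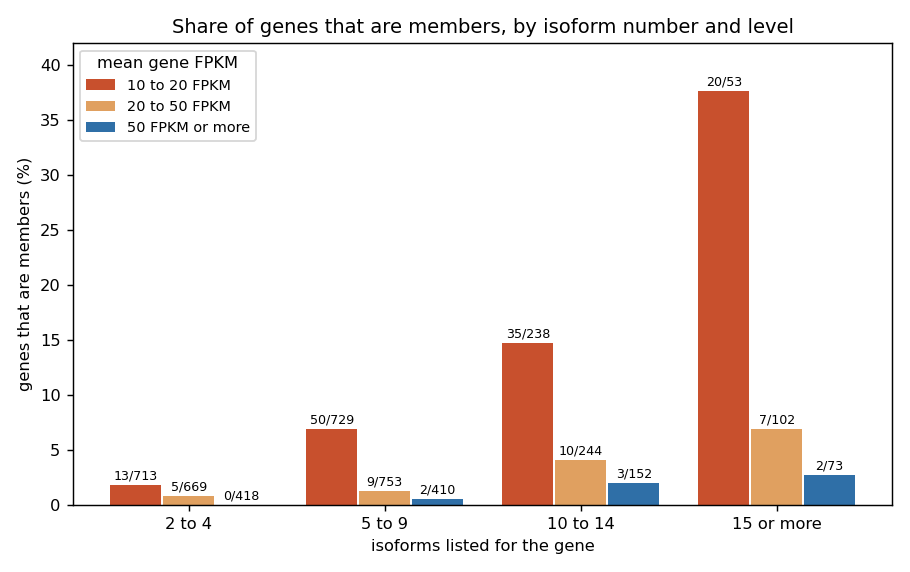
Percent of genes that are members, by the number of isoforms listed for the gene and by mean gene FPKM, with the number of members over the number of genes above each bar. The bar for 15 or more isoforms at 10 to 20 FPKM is the highest at 37.7% (20 of 53 genes), and at every isoform number the bars are lower at higher FPKM.

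Number and level were also crossed. Of the genes with 15 or more isoforms at 10 to 20 FPKM, 20 of 53 (37.7%) were members, but of those at 50 FPKM or more 2 of 73 (2.74%) were. Of the genes with 2 to 4 isoforms, 13 of 713 (1.82%) at 10 to 20 FPKM and 5 of 669 (0.747%) at 20 to 50 FPKM were members. The median shift of all genes was also higher with more isoforms, from 0.0218 at 2 to 4 to 0.118 at 15 or more, and lower with more RNA, from 0.0689 at 10 to 15 FPKM to 0.0219 at 100 FPKM or more. The files give FPKM and no fragment counts. Values above 0 and under a preset cap were taken from genes with 1 isoform and 1 annotated transcript of at least 2 kb. Their medians were 0.0347 FPKM × kb in WT (98 genes) and 0.0329 FPKM × kb in KO (117 genes), and the cap bounds them. If these medians stand for 1 fragment, a transcript of 2 kb at 10 FPKM held about 577 fragments in WT and 608 in KO. How many of them could tell isoforms apart is not known, so no interval is given, and the part of counting error in the shifts was not tested.

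**Figure D5:**
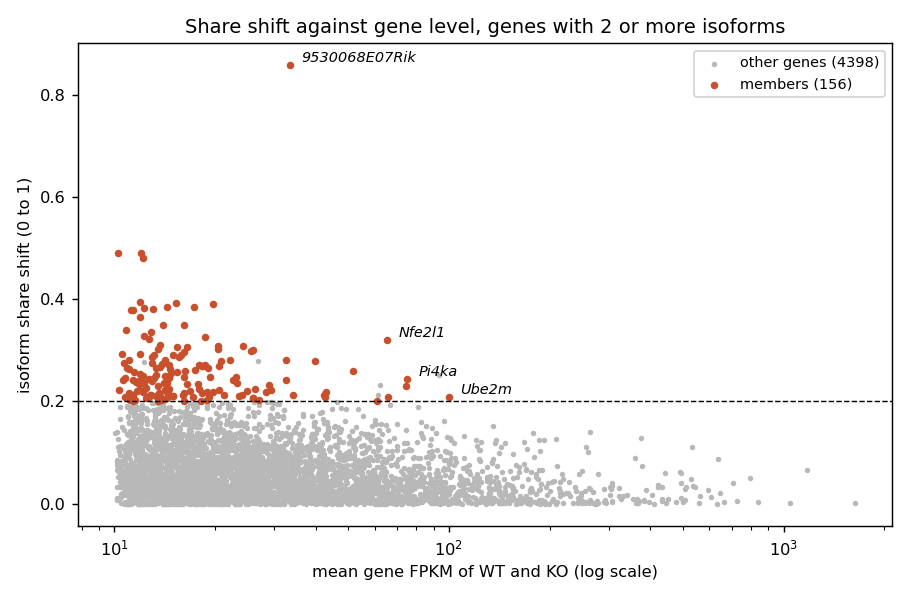
Isoform share shift (0 to 1) of 4554 genes against their mean FPKM in WT and KO on a log scale, with the 156 members in red and a dashed line at the threshold of 0.2, where gray points above the line are the genes left out by name. *Nfe2l1*, *Pi4ka* and *Ube2m* stand out as members at more than 60 FPKM, where few genes reach the threshold.

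Only 7 members had a mean of at least 50 FPKM. Besides *Ube2m*, *Dync1i2*, *Pi4ka*, *Mapk8ip3* and *Nfe2l1*, the 10 with the highest mean FPKM were *Ptp4a2*, *Rb1cc1*, *Dpy19l1*, *Dusp14* and *Brwd1*, all described above. When 1 FPKM was added to every isoform, 32 of the 156 genes still had a shift of at least 0.2. Of the genes named for their abundance, *Nfe2l1* (0.272) and *Pi4ka* (0.211) were among them, while *Dync1i2* (0.199), *Rb1cc1* (0.198) and *Ube2m* (0.194) were just under the threshold. *9530068E07Rik* (0.767), *1110065P20Rik* (0.361), *Pip5k1a* (0.291), *Hcn2* (0.285), *Entpd5* (0.276), *Osbpl8* (0.268) and *Tmem63c* (0.262) were among the highest.

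The annotation of the members was richer than that of all genes considered, and was not compared at equal numbers of isoforms. They had a median of 5 protein-coding transcripts, against 3 for the 4542 considered genes found in the annotation, and 147 (94.2%) had more than 1, against 84.5%. A retained-intron transcript was annotated for 75.0% of the members and 67.2% of all, and a nonsense-mediated decay transcript for 39.7% and 32.6%. An alternative coding exon of the kind shown above, of any length, was annotated for 71 members (45.5%), against 34.7% of all. The most similar pair of annotated transcripts differed by a median of 120 exonic bases in the members and 285 in all, and by 10 bases or fewer in 7 members (4.49%) and 2.27% of all. These 7 were *9530068E07Rik*, *Irak1*, *Macrod2*, *Mapkapk5*, *Pacsin3*, *Repin1* and *Zfp281*. The median gene length was 27.4 kb in the members and 30.4 kb in all.

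A locus entry shared with another gene, as overlapping genes have in the deposited table, was found for 86 members (55.1%) and for 47.6% of all genes considered. *Men1*, *Map4k2* and *Rasgrp2* lie in this order on chromosome 19, with gaps of 243 and 43724 bases, and *Lin37* and *U2af1l4* lie 3462 bases apart on chromosome 7. Genes outside the set were not sought in these gaps. No other members were within 50 kb of each other.

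Each list of gene functions held at most 4 members, and the share of members among all genes considered was 3.43%. Of 59 tested postsynaptic and receptor genes and 48 presynaptic genes 0 were members, with median shifts of 0.0442 and 0.0491. Shares above 3.43% were those of vesicle traffic, cytoskeleton and motor, and transcription and chromatin genes. Vesicle traffic had 4 of 63 (6.35%), *Cpne1*, *Dnm2*, *Osbpl8* and *Sec16a*. Cytoskeleton and motor genes had 3 of 57 (5.26%), *Dync1i2*, *Myo18a* and *Myo6*. Transcription and chromatin genes had 3 of 68 (4.41%), *Baz2b*, *Mbd5* and *Mlx*. Of 59 ion channel, pump and transporter genes 2 were members (3.39%), *Hcn2* and *Tmem63c*, and of 102 signalling genes 2 (1.96%), *Map2k7* and *Tsc1*. No member came from the 55 tested ubiquitin and protein quality control genes or the 62 mitochondrial and energy genes on the lists, since *Ube2m*, *Bola3* and the like were not listed. *Homer1*, *Akap5*, *Grin1*, *Celf1* and *Rod1*, postsynaptic and splicing genes that reached the threshold, had been left out by name and are not on these lists, so the counts of 0 and 1 do not cover them. With so few members on each list, no list is shown to differ from the share of all genes.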

How the data were processed

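The authors sequenced strand-specific libraries, aligned them with TopHat and computed FPKM with Cufflinks on GRCm38, as the submitters' processing notes name without versions or roles. The deposited gene table (37303 genes) and isoform table (90835 rows) give FPKM of the WT and the KO library. The authors' p-values, q-values and lists of changed genes were not used. The extraction protocol in the labels covers cortex or hippocampus with another kit than the methods of the study. Summed isoform FPKM equalled gene FPKM within 0.00084%. Shares, shifts and log2((KO + 1)/(WT + 1)) were computed with Python 3.11.15, pandas 2.3.3 and NumPy 2.4.6, and the share computation was tested on simulated data. No test was made, since each genotype has 1 library. The members and the 20 gene lists were chosen with earlier results of these data known, and functions were assigned by hand after the members were known. Genes described in full are the 20 largest shifts, the 10 highest mean FPKM, those at least 1.5-fold different, those on a functional list and those beside the threshold. Of 25 symbols that a spreadsheet had turned into dates, 2 were members (*Sept9* and *March1*), named by identifier. Alternatives were other FPKM minimums, thresholds, added values and isoform filters.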

Additional observations from a re-analysis of the deposited data

How the results depend on the processing

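The number of members moved most with the FPKM minimum, the threshold and the added value. It was 395 with a minimum of 5 FPKM, 34 with 20 FPKM and 2306 with any value above 0 in both libraries. A shift threshold of 0.15 gave 395 and of 0.3 gave 29, and it was 32 with 1 FPKM added to each isoform. With 0.1 FPKM added it was 129, all of them among the 156, and without isoforms under 1 FPKM in both libraries 130, of which 128 were among the 156. With gene FPKM as the denominator it stayed 156. The leading isoform differed in 49 members, also without low isoforms, and in 13 when a lead of at least 10 percentage points was required. Counts at 1.5-fold and 2-fold were the same with 0 or 0.1 FPKM added, with summed isoforms, and after division by the median KO to WT ratio of 1.01. Of single shifts, 27 were under 0.2 with 0.1 FPKM added, 124 with 1 FPKM and 28 without low isoforms. The search for TGCATG beside alternative exons was not run, since no genome sequence was used here. No paired analysis was possible because each genotype has 1 library. The files give no fragment counts, so no count for an isoform or its interval can be given, and the part of depth in the shifts was not tested.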
